A study of Homo sapiens with 6 samples.

Results

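Expression of 9 genes of the MAGE and PAGE families was followed through human neuroblastoma cell lines with and without forced LMO1. The 9 genes, MAGEA3, MAGEA4, MAGEA6, MAGEA12, MAGEC1, MAGEC2, MAGED1, MAGED2 and PAGE5, were taken by symbol from the 25370 rows of a table of raw read counts. They were chosen on the difference between LMO1 and vector cells in these same libraries, so for them that difference is given as a description, with no test. The 6 libraries were LMO1-Be2C (BE2C cells with LMO1 forced on, 2 libraries), vector-Be2C (the same line with the control vector, 2 libraries), Be2C (the parental line, 1 library) and Kelly (a second neuroblastoma line, 1 library). Both lines are established, and no treatment or time is named for any library. The vector, whether the LMO1 and vector cells are pools or single clones, and whether the 2 libraries of a state are separate cultures are not given in the sources used here. Any p-value below therefore measures only the spread between these libraries.

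MAGE proteins share a MAGE homology domain, through which many of them bind RING-type E3 ubiquitin ligases and alter which proteins those ligases mark. Genes of the type I branch (subfamilies A, B and C, all on the X chromosome) and of the PAGE family are cancer-testis genes: most adult tissues keep them silent, male germ cells express them, and tumours can switch them back on, largely where promoter DNA methylation is lost. Type II MAGE genes, such as MAGED1 and MAGED2, are expressed in many adult tissues and are not cancer-testis genes in this sense. All 9 genes lie on the X chromosome in the GENCODE annotation of GRCh38. LMO1 is a LIM-only protein that bridges transcription factors and is a neuroblastoma risk gene.

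The count data ranged from 18737591 to 25070942 assigned reads in the LMO1 and vector libraries and were deeper in the parental (48663459) and Kelly (59512958) libraries. Levels are CPM, read counts set against the size of their library, which was scaled by the trimmed mean of M values (TMM), and 3 counts correspond to 0.0503 CPM in Kelly and to 0.157 CPM in the shallowest library. The labels of the parental and Kelly libraries carry a separately worded protocol and do not say that they were prepared with the other 4, so for these 2 libraries cell state and preparation cannot be told apart. LMO1 itself had 125 and 133 counts in LMO1 cells, 23 and 23 in vector cells, 92 in parental cells and 5608 in Kelly cells. The forced gene was thus 6.26-fold higher (95% counting interval 4.56 to 8.76) in LMO1 than in vector cells, and parental cells were 1.95-fold above vector cells. MYCN, the amplified oncogene of both lines, ranged from 1558 to 2066 CPM. The sympathoadrenal markers HAND2 (193 to 709.8 CPM) and GATA3 (61.8 to 267 CPM) were detected in all 6 libraries. Immune, endothelial and epithelial marker sums stayed at or below 2.75 CPM, and melanocytic and Schwann markers summed to 1.88 to 2.87 CPM in BE2C-derived cells and 22.8 CPM in Kelly, with PMEL at 16.8. The germ cell markers DDX4 and DAZL had no more than 2 counts in any library, and the 4-gene germ cell sum was 2.42 to 2.72 CPM with LMO1, 2.74 to 2.84 with vector, 1.95 in parental and 1.53 in Kelly cells. The summed fibroblast markers, which include DCN and PDGFRB, were 100.1 and 100.5 CPM with LMO1, 75.8 and 81.0 with vector, 180.3 in parental and 159.7 in Kelly cells. LUM, DCN and COL1A1 were higher with LMO1 than with vector, COL1A1 by little (1.938 and 2.641 against 1.925 and 1.248 CPM). PDGFRB was lower (42.9 and 42.8 against 46.2 and 48.7 CPM). The part of these markers in the results was not tested.

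Because reads of close paralogues can be assigned to the wrong gene or discarded, the transcripts were first compared. MAGEA3 and MAGEA6 are the closest pair. Their coding sequences, 942 bases each, differ at 18 positions (98.1% identical) and share an unbroken run of 308 bases. The stretch below, coding bases 573 to 632 of each GENCODE transcript, is shown because it holds 4 of the 18 differences, so that a read over it can tell the genes apart. Capitals mark the differing bases.
MAGEA3: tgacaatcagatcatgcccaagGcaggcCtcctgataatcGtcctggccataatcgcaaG
MAGEA6: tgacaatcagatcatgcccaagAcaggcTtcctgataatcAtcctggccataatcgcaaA

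Of all 50-base stretches of the MAGEA3 transcript 43.8% occurred in no other gene, and for MAGEA6 the share was 43.4%. With 100-base stretches it rose to 63.9% for each. MAGEA12 is the next relative, with a coding sequence 92.5% identical to that of MAGEA6, but 91.2% of its 50-base stretches and all of its 100-base stretches were its own. PAGE5 (86.3%), MAGEA4 (96.4%) and the 4 MAGEC and MAGED genes (at least 99.6%) were better separated at 50 bases, and each was fully separated at 100. Counts of MAGEA3 and MAGEA6 are therefore uncertain as a split, and those of the other 7 genes rest mainly on their own sequence. MAGEA4 overlaps an antisense gene, MAGEA4-AS1, and MAGEA12 overlaps CSAG4 on the same strand. The strand setting of the counting is not given in the sources used here, so reads of MAGEA4-AS1 cannot be separated from those of MAGEA4. For CSAG4, on the same strand, that setting makes no difference. CSAG4 had its own row, with 44 counts in Kelly, against 3211 for MAGEA12 there, and 0 in the other libraries.

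**Figure D1:**
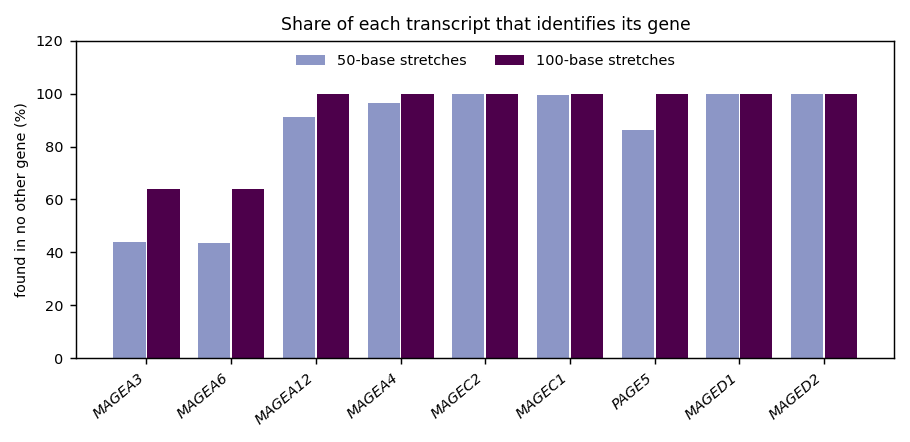
For each of the 9 genes (horizontal axis), bars give the percent of all 50-base and 100-base stretches of its transcript that occur in no other annotated gene (vertical axis, percent). MAGEA3 and MAGEA6 stand at 43.8% and 43.4% for 50 bases and 63.9% for 100 bases, and every other gene reaches 100% at 100 bases.

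The promoters are shown for MAGEA6, MAGEC1 and MAGEC2, the 3 cancer-testis genes with the largest differences in level among BE2C-derived cells on the log2(CPM + 1) scale. Each is the RefSeq window from 250 bases before to 50 bases after the start (GRCh38.p14), read 5′ to 3′ on the strand of the gene. Capitals mark CCGGATGT, an ETS-like motif picked after these windows had been read and searched on both strands. MAGEA6 is at chrX:152769640-152769939 on the minus strand, MAGEC1 at chrX:141903644-141903943 on the plus strand and MAGEC2 at chrX:142205241-142205540 on the minus strand.
MAGEA6: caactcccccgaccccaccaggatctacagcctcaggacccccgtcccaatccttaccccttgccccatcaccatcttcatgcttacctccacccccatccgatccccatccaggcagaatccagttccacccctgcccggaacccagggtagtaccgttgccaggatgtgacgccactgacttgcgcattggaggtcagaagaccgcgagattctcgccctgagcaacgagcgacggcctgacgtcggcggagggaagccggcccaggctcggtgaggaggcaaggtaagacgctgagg
MAGEC1: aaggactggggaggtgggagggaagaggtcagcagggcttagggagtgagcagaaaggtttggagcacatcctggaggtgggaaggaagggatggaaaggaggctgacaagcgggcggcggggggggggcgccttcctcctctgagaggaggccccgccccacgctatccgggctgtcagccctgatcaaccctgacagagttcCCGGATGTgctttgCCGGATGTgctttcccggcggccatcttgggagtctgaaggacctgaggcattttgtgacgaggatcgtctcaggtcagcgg
MAGEC2: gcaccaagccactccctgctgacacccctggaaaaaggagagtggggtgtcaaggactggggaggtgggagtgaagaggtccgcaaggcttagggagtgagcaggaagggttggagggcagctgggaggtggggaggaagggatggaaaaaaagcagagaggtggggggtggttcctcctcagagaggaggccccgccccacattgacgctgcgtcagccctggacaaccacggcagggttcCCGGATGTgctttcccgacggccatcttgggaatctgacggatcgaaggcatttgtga

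The MAGEA3 window (chrX:152698544-152698843, plus strand) is identical to that of MAGEA6 over all 300 bases, and no other gene in the table of 35116 windows carries this sequence. CCGGATGT occurred in 0.701% of all windows. It was present once in MAGEC2, 2 times in MAGEC1, once in each of the 5 MAGEA4 windows and once in each of the 2 overlapping MAGEA12 windows, and it was not found in the windows of MAGEA3, MAGEA6, MAGED1, MAGED2 or PAGE5. The MAGEA3 and MAGEA6 windows hold CAGGATGT, 1 base different from CCGGATGT, whose share over all windows was not counted. The related CCGGAAGT, found in 4.14% of windows, was present in 1 of 2 windows of both MAGED1 and MAGED2. TTGCGCA, also searched, occurred in 1.94% of windows. It was present in the windows of MAGEA3 and MAGEA6, in all 5 of MAGEA4 and in 1 of 2 of MAGED1. CACGTG, an E-box that MYCN can bind, occurred in 7.26% of windows and in that of PAGE5 alone among the 9 genes. The motif AGATAA, of the kind GATA3 binds, occurred in 10.3% of windows and in none of the 16 windows of the 9 genes. The windows held 9 to 20 CpG dinucleotides against a median of 14 over all windows. A match of letters describes the sequence and does not show binding, and these promoters were not assayed.

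The MAGEC genes were counted in every library, and the order of the cell states differed between them. MAGEC2, whose protein binds the ligase partner TRIM28, was counted 642 and 760 times with LMO1, 57 and 83 times with vector, 605 times in parental BE2C and 6 times in Kelly cells. In CPM these were 33.6 and 33.5 with LMO1, 2.61 and 3.34 with vector, 12.7 in parental and 0.101 in Kelly cells. The LMO1 libraries were the highest of the 6, the parental library lay between LMO1 and vector, and Kelly was the lowest. The mean was 33.5 ± 0.117 CPM with LMO1 and 2.98 ± 0.515 CPM with vector (SD, n = 2 each), an 11.2-fold ratio (95% counting interval 9.39 to 13.4, which covers counting error only). Parental cells were 4.22-fold above the same vector libraries (3.51 to 5.11) and LMO1 cells 2.65-fold above parental (2.405 to 2.92). Kelly was 126-fold below parental (57.4 to 344). In bulk RNA, fewer expressing cells and less RNA per cell cannot be told apart, here or for the other genes.

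MAGEC1, whose protein has a long repeat region ahead of its MAGE domain, had 2 and 13 counts with LMO1, 100 and 118 with vector, 394 in parental and 32 in Kelly cells. The levels were 0.105 and 0.572 CPM with LMO1, 4.58 and 4.75 with vector, 8.25 in parental and 0.537 in Kelly cells. Here the parental library was the highest and the LMO1 and Kelly libraries the lowest, and LMO1 and vector did not overlap. LMO1 cells were 13-fold below vector (7.72 to 23.7) and 23-fold below parental (13.8 to 41.5). Parental cells were 1.77-fold above vector (1.49 to 2.09). The LMO1 libraries differed from each other: without LMO1 replicate 1 the MAGEC1 level was 8.16-fold below vector and 14.4-fold below parental, and without LMO1 replicate 2 it was 44.6-fold (12.2 to 371) and 78.7-fold below. LMO1 replicate 2 was at the Kelly level, and LMO1 replicate 1 was below it.

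The balance of the 2 MAGEC genes was read as the share of MAGEC2 among their summed counts, with Wilson 95% intervals. MAGEC2 made up 99.7% (98.9 to 99.9) and 98.3% (97.1 to 99.0) with LMO1 and 36.3% (29.2 to 44.1) and 41.3% (34.7 to 48.2) with vector. It made up 60.6% (57.5 to 63.55) in parental and 15.8% (7.44 to 30.4) in Kelly cells, so the parental library lay between the LMO1 and vector libraries. Per kilobase of transcript the MAGEC2 level in parental cells was 6.36 CPM and that of MAGEC1 1.93 CPM. With vector the mean per-kilobase levels were 1.5 and 1.09 CPM, and with LMO1 they were 16.8 and 0.0793 CPM.

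**Figure D2:**
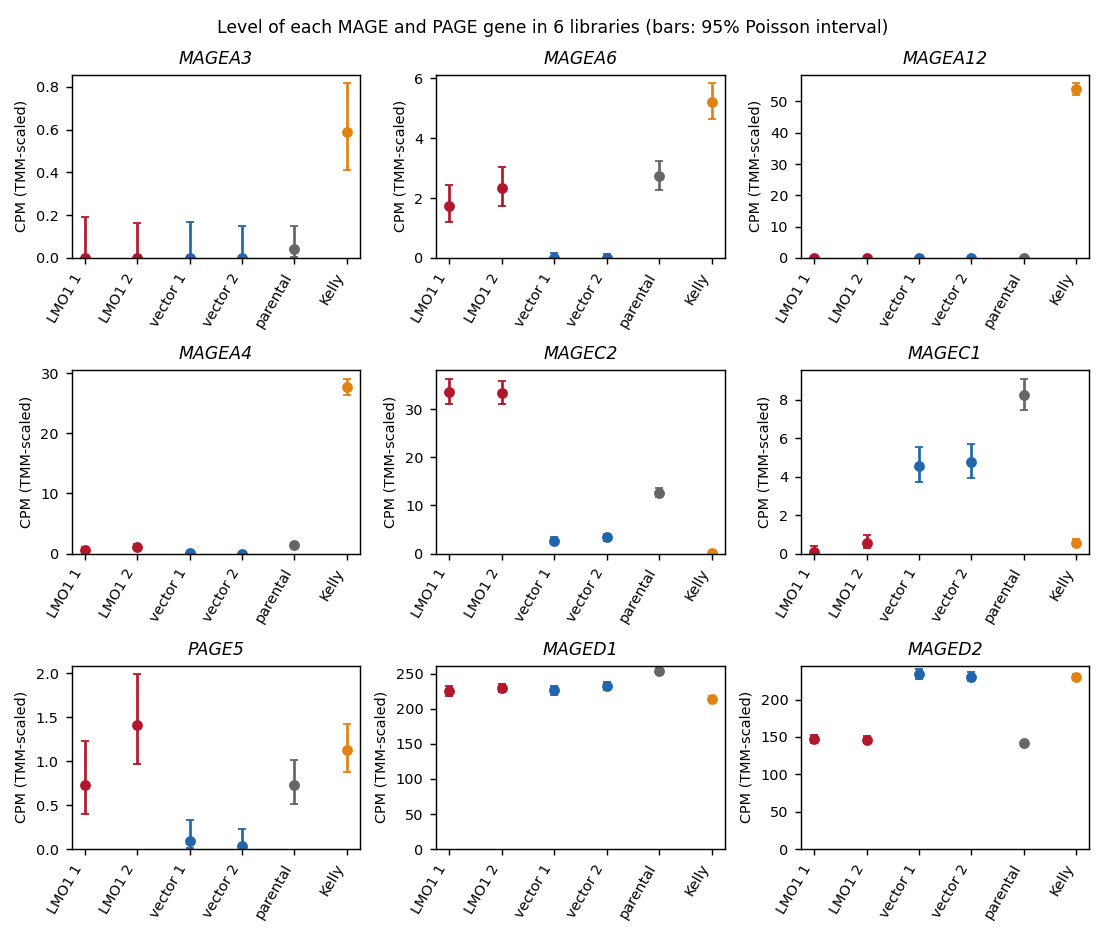
Level of each of the 9 genes (vertical axis, TMM-scaled CPM on a linear scale from 0) in each of the 6 libraries (horizontal axis), with points for single libraries and bars for the 95% Poisson interval of the count. MAGEC2 is highest with LMO1 (33.6 and 33.5 CPM), MAGEC1 is highest in the parental library (8.25 CPM), and MAGEA12 and MAGEA4 are highest in Kelly cells (53.9 and 27.7 CPM).

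The MAGEA genes were low in all BE2C-derived cells, and 2 of the 4 were at 0 in both LMO1 and vector cells. MAGEA6 had 33 and 53 counts with LMO1, 0 and 0 with vector, 130 in parental and 311 in Kelly cells. The levels were 1.73 and 2.33 CPM with LMO1, 2.72 in parental and 5.22 in Kelly cells, so the vector libraries were the ones that stood apart from the other 4. With the floor for the vector group set at 3 counts, LMO1 cells were at least 32-fold higher than vector and parental cells at least 42.3-fold higher. LMO1 cells were at 0.756 of the parental level (0.569 to 1.0). This was 0.857 (0.611 to 1.19) without LMO1 replicate 1 and 0.635 (0.420 to 0.937) without LMO1 replicate 2. Kelly was 1.92-fold above parental (1.56 to 2.37).

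MAGEA3, the near-copy of MAGEA6 with the same promoter letters, had no count in any LMO1 or vector library, 2 in parental and 35 in Kelly cells. It made up 0 of 86 summed MAGEA3 and MAGEA6 counts with LMO1, which allows a share of up to 3.49% at 3 counts (Wilson upper limit 4.28%). The share was 1.52% in parental cells (0.416 to 5.36) and 10.1% in Kelly cells (7.36 to 13.7). In every library with counts of the pair, MAGEA6 therefore held most of them. No fold is given for MAGEA3 within BE2C-derived cells, where every group was at or under the floor.

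MAGEA4 had 12 and 25 counts with LMO1, 2 and 0 with vector, 67 in parental and 1650 in Kelly cells. As for MAGEA6, the vector libraries were the lowest and the parental library was above LMO1. The ratio to vector was 20.6 for LMO1 (5.33 to 177) and 32.7 for parental cells (8.71 to 276), each resting on the same 2 vector counts, both from vector replicate 1. Without vector replicate 2 the ratios were 9.66 and 15.3, and without replicate 1 the vector count was 0. Kelly was 19.7-fold above parental (15.5 to 25.6). MAGEA12, which shares much of its coding sequence with MAGEA3 and MAGEA6, had no count with LMO1 or vector, 7 in parental and 3211 in Kelly cells. Its level in Kelly was 53.9 CPM, 368-fold above parental (178 to 916). The MAGEA12 row thus carries no LMO1 difference at all, and the parental library was at least 2.28-fold above the vector floor.

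PAGE5, a small protein gene of the PAGE family, had 14 and 32 counts with LMO1, 2 and 1 with vector, 35 in parental and 67 in Kelly cells. Vector was again the lowest, while LMO1 (0.733 and 1.41 CPM), parental (0.733 CPM) and Kelly (1.12 CPM) lay within the same range. LMO1 was 17.1-fold above vector (5.50 to 86.0) and parental 11.4-fold above it (3.59 to 57.9), both against the same 3 vector counts. Without vector replicate 1 these were 27.3 and 18.2, and without LMO1 replicate 2 the LMO1 ratio was 11.4. Between LMO1 and parental cells the ratio was 1.5, with an interval (0.947 to 2.40) that includes no difference, and without LMO1 replicate 1 it was 1.92 (1.15 to 3.20).

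The type II genes were high in all 6 libraries, which goes against the name cancer-testis for this pair. MAGED1, an adaptor of the neurotrophin receptor NGFR, had 225 and 229.8 CPM with LMO1, 226 and 233 with vector, 255 in parental and 214 in Kelly cells. The LMO1 and vector libraries overlapped, with a ratio of 0.992 (0.965 to 1.02) that changed side with total count scaling, so MAGED1 carried no large LMO1 difference. MAGED2, known for its role in renal salt transport, had 147 and 146 CPM with LMO1, 234 and 230.5 with vector, 142 in parental and 230.2 in Kelly cells. Vector and Kelly cells were the high ones, and LMO1 and parental cells the low ones. LMO1 was 1.58-fold below vector (1.53 to 1.63) and parental 1.64-fold below it (1.59 to 1.69), while LMO1 and parental cells differed by less than counting error (1.03-fold, 0.998 to 1.07). 

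Set side by side, the LMO1 and parental differences share the 2 vector libraries as their base. On the scale of log2(CPM + 1), the LMO1 and parental ratios to vector were 3.12 and 1.78 for MAGEC2, 1.60 and 1.90 for MAGEA6, 0.83 and 1.20 for MAGEA4, and 0.96 and 0.70 for PAGE5. For MAGED2 they were -0.66 and -0.71, and for MAGED1 -0.01 and 0.15. For MAGEC1 they were -2.08 and 0.71. Because the vector libraries enter both ratios, no likeness between the columns of values is read from them. Compared directly, LMO1 cells were at 0.631 of the parental level for MAGEA4 (0.41 to 0.956). Without LMO1 replicate 1 this was 0.785 (0.475 to 1.26). For MAGED1 the direct ratio was 0.894 (0.870 to 0.918), and for the other genes named here it is given above.

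**Figure D3:**
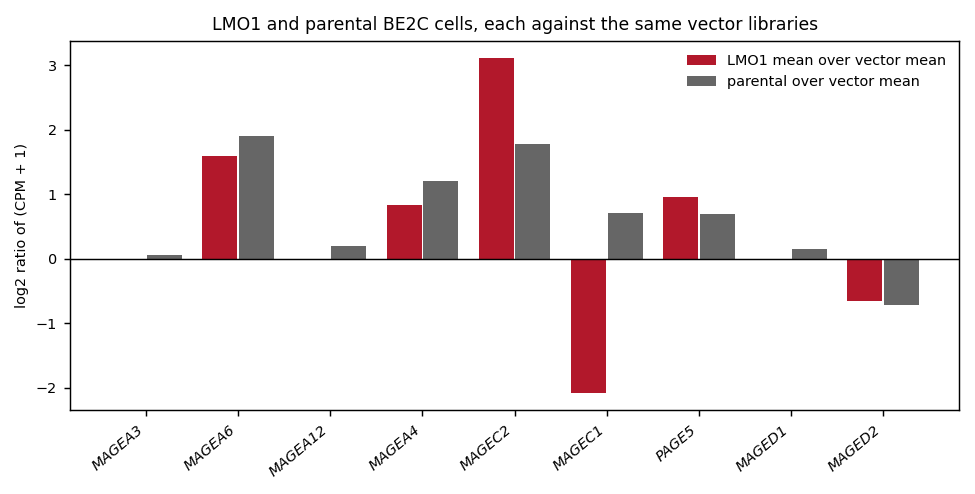
Bars give the log2 ratio of CPM + 1 (vertical axis) of the mean of the 2 LMO1 libraries and of the parental library to the mean of the same 2 vector libraries, for each of the 9 genes (horizontal axis), with no error bars because the parental side is 1 library. The LMO1 bar is the longer one for MAGEC2 (3.12 and 1.78), the parental bar for MAGEA6 (1.60 and 1.90), and the bars of MAGEC1 stand at -2.08 and 0.71.

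Of the 9 genes, 4 were higher with LMO1 than with vector in both libraries against both (MAGEC2, MAGEA6, MAGEA4 and PAGE5), 2 were lower (MAGEC1 and MAGED2), and MAGED1, MAGEA3 and MAGEA12 showed no such separation. Of all 15480 genes tested, 31.3% had both LMO1 libraries above both vector libraries and 32.4% had both below. In the fit over all genes (edgeR's quasi-likelihood test), 7 of the 9 passed the filter on low counts and MAGEA3 and MAGEA12 did not. Of the same 15480 genes, 31% were called at an adjusted p below 0.05, 15.9% higher and 15.1% lower. Nothing is read from the 9 genes against that background, because this contrast chose them, for the calls or for the separation. For parental against vector, a 2-fold mark was applied where either side reached 5 CPM. It was passed upward by 8.79% and downward by 2.58% of 11727 genes. Of the 4 members that reached 5 CPM there (MAGEC1, MAGEC2, MAGED1 and MAGED2), MAGEC2 passed upward and none downward. For Kelly against parental, the same mark was passed upward by 15.3% and downward by 13.4% of 12387 genes. Among the 7 members with 5 CPM on either side, MAGEA4 and MAGEA12 were higher, and MAGEC1 and MAGEC2 were lower.

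The other type I MAGE genes mostly had few or no counts in these cells. Of 20 in the table, 9 had no read in any library and only MAGEA10 was abundant enough to test. MAGEA10 was 1.94 and 1.58 CPM with LMO1, 0.458 and 0.322 with vector, 3.31 in parental and 215 in Kelly cells. It rose with LMO1 by 2.17 on the log2 scale (SE 0.471, edgeR adjusted p = 0.000283), and its parental level was again above both. MAGEA10 had 37 and 36 counts with LMO1 and 10 and 8 with vector. It thus passed the low-count filter through the LMO1 libraries, and its call is not read for the list as a whole. Summed over all 26 type I genes, the level was 38.2 and 39.6 CPM with LMO1, 8.07 and 8.69 with vector, 29 in parental and 387.5 in Kelly cells. MAGEC2 made up 88.1% and 84.5% of that sum with LMO1, and MAGEC1 made up 56.8% and 54.6% with vector. MAGEC2 led in parental cells with 43.7%, and MAGEA10 led in Kelly with 55.5%.

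In Kelly cells a few MAGEA genes were high, and the others were low or at 0. Per kilobase of transcript, MAGEA10 stood at 78.4 CPM, MAGEA1 at 43.4, MAGEA12 at 30.6 and MAGEA4 at 15.6, followed by MAGEA8 at 3.21, MAGEA6 at 2.96, MAGEA2 at 0.680, MAGEA3 at 0.333 and MAGEA11 at 0.135. MAGEA2B, MAGEA5, MAGEA9 and MAGEA9B had no count there. Of the 100-base stretches of MAGEA2, 97.8% were shared with MAGEA2B, so its level and place in this order are uncertain. All 100-base stretches of MAGEA2B were shared with MAGEA2, and MAGEA9 and MAGEA9B shared 89.7% and 90.0% with each other. The counts of 0 of MAGEA2B, MAGEA9 and MAGEA9B are therefore uncertain too. MAGEA1 had 4424 counts in Kelly and none in the other 5 libraries. MAGEC1 and MAGEC2 were at 0.126 and 0.0506 CPM per kilobase. In parental BE2C the order was MAGEC2 (6.36), MAGEC1 (1.93), MAGEA6 (1.54), MAGEA10 (1.21) and MAGEA4 (0.791). All type I genes were far below the per-kilobase levels of MAGED1 (88.6) and MAGED2 (64.8) in parental cells, whereas in Kelly MAGEA10 was close to MAGED1 (78.4 and 74.6). With 1 library per line, these orders have no replicate check.

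**Figure D4:**
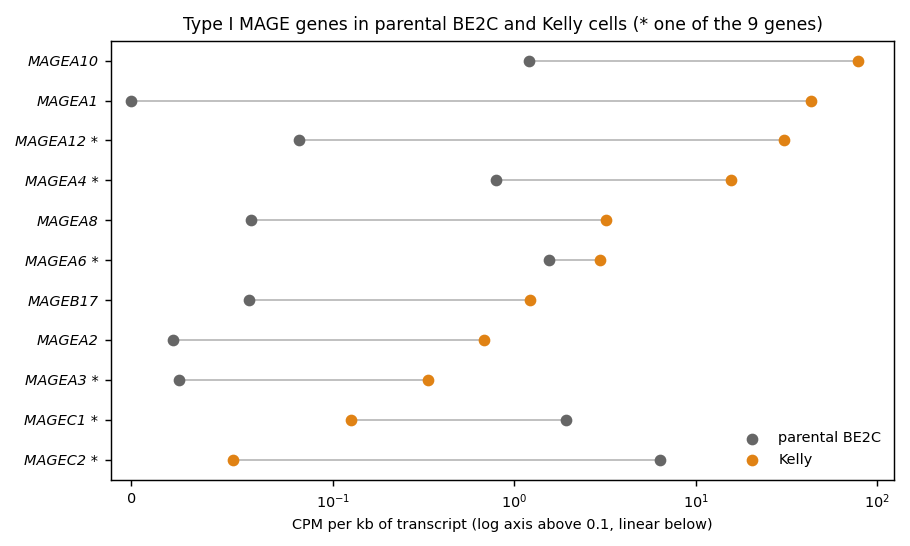
Level per kilobase of transcript (horizontal axis, CPM per kb, logarithmic above 0.1 and linear below) of type I MAGE genes with more than 20 counts in all, in parental BE2C and in Kelly, 1 library each, with the 9 genes of interest marked by an asterisk. The MAGEA genes drawn lie to the right in Kelly (MAGEA10 at 78.4 against 1.21, MAGEA3 at 0.333 against 0.0238), and MAGEC1 and MAGEC2 lie to the right in parental BE2C (1.93 and 6.36 against 0.126 and 0.0506).

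Of the type II genes outside the 9, 6 of 10 could be tested, with a median log2 change of -0.02 against 0.00 over all genes, and NDN alone was called (16.7% against 31% of all genes). NDN, an imprinted growth suppressor, rose from 7.40 ± 0.617 CPM with vector to 17 ± 1.065 CPM with LMO1 (SD, n = 2 each), by 1.21 on the log2 scale (SE 0.134, edgeR adjusted p = 4e-10). It was 18.9 CPM in parental and 0.822 CPM in Kelly cells, so parental and LMO1 cells were again near each other. TRO, which encodes a cell adhesion protein, was 3.02-fold higher in Kelly than in parental cells. MAGED4 and MAGED4B, near-identical to each other, had no counts.

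No other PAGE, GAGE or XAGE gene could be tested. Of 33 such genes, 26 had no read in any library, and the other 7 had no more than 2 counts in each LMO1 and vector library. In Kelly GAGE12J had 2303 counts and PAGE1 147, both absent from the other 5 libraries. GAGE12J stands for a group of near-copies, since 22.6% of its 100-base stretches were its own. Of 52 other X-linked cancer-testis genes, 36 had no read. CT55, the 1 gene tested there, was 0.878 ± 0.501 CPM with LMO1 and 1.37 ± 0.459 CPM with vector (SD, n = 2 each; log2 -0.59, edgeR adjusted p = 0.336). None of this list was called, none had an unadjusted p below 0.05, and DESeq2 also called 0. CT55 reached 24.6 CPM and CSAG1 15 CPM in Kelly, against 0.461 and 0.0209 CPM in parental cells. Across 100 other MAGE, PAGE, GAGE, XAGE and X-linked cancer-testis genes whose transcripts were compared, 59 had no counts. All 100-base stretches of 17 of these 59 were shared with another gene, so a count of 0 there does not show absence. For 33 of the 59, these 17 included, most 100-base stretches were shared, so their counts of 0 are uncertain too.

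Among 31 autosomal germline and cancer-testis genes, 10 were tested, the median log2 change was 0.20, and PRAME alone was called (10% against 31% of all genes). PRAME, a tumour antigen that dampens retinoic acid signalling, rose from 5.31 ± 0.574 to 10.04 ± 0.757 CPM (SD, n = 2 each), by 0.92 on the log2 scale (SE 0.164, edgeR adjusted p = 1.46e-05). It was 6.72 CPM in parental and 625 CPM in Kelly cells. CTCFL, the germline paralogue of CTCF, had 1143 counts in Kelly and 5 in parental cells. TDRD1, a piRNA pathway gene, ran the other way, at 116 CPM in parental and 0.0336 CPM in Kelly cells.

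Among genes whose products bind or are acted on by MAGE proteins, 18 of 19 were tested, 2 rose and 6 fell (44.4% called, median log2 -0.06, against 31% and 0.00 over all genes). NGFR, the receptor that MAGED1 binds, was 10.5 and 13 CPM with LMO1, 3.35 and 3.74 with vector, 5.92 in parental and 15.3 in Kelly cells, and rose by 1.74 on the log2 scale (SE 0.173, edgeR adjusted p = 1.9e-11). TRIM28, the partner of MAGEA3, MAGEA6 and MAGEC2, fell by 0.27 (SE 0.0384, adjusted p = 1.19e-07), from 187 ± 0.135 to 154 ± 1.13 CPM. TRIM27, another RING-type ligase of this list, fell by 0.21 (SE 0.0414, edgeR adjusted p = 8.35e-05). SMC6, of the DNA repair complex that contains a type II MAGE protein, fell by 0.22 (SE 0.0448, edgeR adjusted p = 8.19e-05). UNC5A, a netrin receptor named here after its value was seen, rose by 0.22 (SE 0.0799, adjusted p = 0.0343) and was called in 6 of 12 fits, with the call lost when any 1 of the 4 libraries was left out. PJA1, DLX5 and MSX2, also named after their values were seen, were the other genes of this list that were called, and they fell. In Kelly TRIM28 was 391 CPM against 178 in parental cells.

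A list of genes that write, read or remove DNA methylation or that act in H3K9 and H3K27 repression was measured in the same fit. Of 25 genes, 24 were tested, none rose and 9 fell (37.5% called, median log2 -0.08, against the same 31% and 0.00), and every fall was under 0.35 on the log2 scale. DNMT1, the maintenance DNA methyltransferase, was 242 ± 7.00 CPM with LMO1 and 280.2 ± 14.3 CPM with vector (SD, n = 2 each), and fell by 0.21 (SE 0.0358, edgeR adjusted p = 8.26e-06). MBD3, of the NuRD repressor, fell by 0.28 (SE 0.0495, adjusted p = 1.51e-05). TET3, which oxidises methylcytosine and so acts in its removal, fell by 0.34 (SE 0.0746, adjusted p = 0.000288), and TET2, of the same family and named after its value was seen, fell by 0.20 (SE 0.0599, adjusted p = 0.00787). The TET2 call was lost with DESeq2, without LMO1 replicate 1 and without vector replicate 2 (highest adjusted p = 0.159). DNMT3A, a de novo methyltransferase, fell by 0.20 (SE 0.0489, adjusted p = 0.000977), a call that was lost without LMO1 replicate 2 or without vector replicate 2 (highest adjusted p = 0.136). The falls were not confined to DNA methylation genes. SETDB1, EHMT1 and EHMT2, of H3K9 methylation, were also called lower, as was MBD1, all named after their values were seen. In parental cells DNMT1 was 362 CPM and TET3 115 CPM, both above the LMO1 and vector means. Kelly had 266 CPM of DNMT1, and DNA methylation was not measured.

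The genes most like each member were sought by Pearson's r of log2(CPM + 1) over the 6 libraries, among 4710 or 4711 variable genes, as a description only, since the libraries fall into few states. MAGEC2 was nearest to TGFBR3L and WSCD1 (r = 0.993 each). MAGEA6 was nearest to COL27A1, a fibrillar collagen (r = 0.993), and MAGEC1 to SLC6A19, an amino acid transporter (r = 0.992), and CRTAC1 (r = 0.99). MAGED2 was nearest to NELL2, a secreted neural glycoprotein (r = 0.999), and TNFRSF19 (r = 0.991). For MAGEA12 and MAGEA4, 131 and 68 genes passed r = 0.99, and for both the Kelly library was the one high point. MAGED1, with little spread, reached r = 0.983 with PCDHGC3.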

How the data were processed

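Per the labels, total RNA of 6 cell-line libraries was sequenced as paired-end stranded libraries. The authors deposited raw read counts per gene symbol. The submitters' processing notes name hg19, TopHat2 2.0.6 and HTSeq. The gene annotation and strand setting are not given in the sources used here, so splitting of paralogue and antisense reads could not be followed.

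Members and lists were chosen with earlier results of these data known. Named genes are the 9 members, LMO1 and MYCN. Of each of 7 lists (other type I MAGE, type II MAGE, PAGE/GAGE/XAGE, other X-linked, autosomal germline, MAGE partner and silencing genes) up to 4 called genes with the lowest adjusted p were named, and up to 3 with the largest ratio past 2-fold between single libraries (at least 5 CPM). For members with 5 CPM in a library, the 3 genes with the highest r were candidates for naming. PAGE1, UNC5A, TET2, TEX15, MAGED4, MAGED4B, MAGEA2, MAGEA2B, MAGEA5, MAGEA9, MAGEA9B, MAGEA11 and, in a figure, MAGEB17 fall outside the rule and were chosen after their values were seen. PJA1, DLX5, MSX2, SETDB1, EHMT1, EHMT2 and MBD1 were likewise named after their values were seen.

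Counts were scaled by TMM (edgeR 4.0.16, R 4.3.3). LMO1 and vector were compared with edgeR's quasi-likelihood test after its low-count filter, with Benjamini-Hochberg adjustment, called below 0.05. The code was tested on simulated data. Kelly and parental comparisons have a single library on at least 1 side and no test; a pseudocount of 1 CPM was added for log2 ratios. Member folds have exact 95% conditional Poisson intervals, which cover counting error only, and a floor of 3 counts. The 2 libraries of the LMO1 group, and those of the vector group, differed by more than sampling noise. Transcript and promoter comparisons used GENCODE and RefSeq GRCh38 tables, not the hg19 build of the counts.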

Additional observations from a re-analysis of the deposited data

How the results depend on the processing

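DESeq2 called 1539 genes higher and 1431 lower with LMO1, against 2463 and 2334 in edgeR, and limma-voom called 2440 and 2310. Leaving out 1 library gave 1772 to 1914 higher and 1670 to 1745 lower, with the remaining library of that group assumed to vary like the other group. Same-numbered LMO1 and vector libraries did not deviate together over the genes (r = -0.0237). The labels do not say whether they share a culture, and this value cannot decide it. With the replicate block 2473 genes were higher and 2374 lower. Among autosomal germline genes 2 were called with RLE scaling and 2 with the replicate block, and leaving out 1 library gave 1 to 2; the added gene was TEX15, also called without LMO1 replicate 2, and the cause was not tested. NDN and PRAME were called in all 12 fits. So was MAGEA10, which passed the low-count filter through the LMO1 libraries, so its call is not read for its list. DNMT3A was called in 10 of 12. Of 117 alternative values of the members' log2 ratios, 28 moved. Some moved with a pseudocount of 0.5 CPM (MAGEA6 1.60 to 2.34, MAGEC1 -2.08 to -2.62, MAGEA12 in Kelly 5.58 to 6.39). Others moved with total count or RLE scaling, most of them for parental over vector. Among these, LMO1 over vector for MAGED1 went from -0.01 to 0.02 with total count scaling. Parental over vector for MAGED2 went from -0.71 to -0.76 with RLE scaling. No scaling moved the median of all genes by more than 0.03. Depth limits MAGEA3, MAGEA4, MAGEA6, MAGEA12 and PAGE5, whose vector libraries together held 0 to 3 counts.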
